A study of Mus musculus with 12 samples.

Results

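The 34 genes described here encode the machinery of fatty acid oxidation and the peroxisome proliferator-activated receptors (PPARs) with their best known targets. They were taken by symbol from the 47729 genes counted in each of 12 RNA-seq libraries of mouse liver cancer cell lines, and all 34 symbols were found. The lines had been grown in high glucose medium with 10% serum. PLX4720, a small molecule that inhibits the mutant kinase BRAF V600E, was given at 2 µM for 48 h, and its solvent DMSO for the same time to the other culture of each line. M1, M2 and M3 were lymph node metastasis lines and T1, T2 and T3 were primary liver tumour lines. The groups were thus metastasis lines with PLX4720, metastasis lines with DMSO, primary lines with PLX4720 and primary lines with DMSO, with 3 lines in each and 1 library per line and treatment. Every line is labelled with BRAF V600E and a knockout of p53, whereas the series' design text speaks of hepatocyte-specific BRAF V600E with loss of either Trp53 or Cdkn2a. Replicates are therefore lines, and p-values measure the spread between lines. In the names of the deposited tables T3, M2 and M3 carry the same number, and whether they share an animal is not known.

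Fatty acids enter mitochondria as carnitine esters and are shortened there in a spiral of oxidation, hydration, oxidation and thiolysis, while peroxisomes carry out a similar chain on very long or branched acids. In liver, PPAR alpha switches these genes on during fasting and PPAR gamma is better known for lipid storage, both as partners of retinoid X receptors and with co-activators such as PGC-1 alpha. Pyruvate dehydrogenase kinases act at the same switch by holding back the use of pyruvate, so that acetyl-CoA comes from fat rather than sugar.

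Libraries held 31992512 to 39288748 counted fragments, and the 34 genes took 0.116% to 0.207% of them. Mitochondrially encoded genes made up 3.67% of fragments in the PLX4720 library of T3 and 0.189% to 0.712% elsewhere. Etv4, an ERK pathway output gene used as a check of the inhibitor, fell by 2.15 on the log2 scale over all 6 lines, as did Dusp6 by 1.43 (edgeR adjusted p = 0.000124 and 0.000404). Of the 5 such genes checked, 5 were called lower over all lines and 4 in metastasis lines. Spry4 was not lower in M1, at 15.3 CPM with PLX4720 against 13.7 CPM with DMSO (counts scaled to library size). Its call over all lines was lost without M2 (edgeR adjusted p = 0.052). The labels' liver origin was checked against hepatocyte markers. The 13 of them summed to 0.466 to 0.96 CPM with PLX4720 and 0.446 to 1.31 CPM with DMSO in metastasis lines, where Alb, serum albumin, had no fragment. In primary lines the same sums were 147 to 324 CPM with PLX4720 and 168 to 288 CPM with DMSO, most of it from the regulator Hnf4a. Fibroblast and stellate markers in metastasis lines summed to 2191 to 9025 CPM with PLX4720 and 534 to 3119 CPM with DMSO. Their sums in primary lines were 1.93 to 28.1 CPM with PLX4720 and 1.92 to 11.3 CPM with DMSO. Not all of that list was high in metastasis lines. Col1a2 was its highest gene in every metastasis library, while Lrat and Des had no fragment there. Dcn had 190 to 312 CPM in M1 but 2.68 to 7.49 CPM in M2 and M3. Adipocyte markers stayed at or below 5.61 CPM in sum and macrophage markers at or below 11.2 CPM, with Lep, Adgre1 and Tyrobp at 0 in all 12 libraries. In such bulk samples fewer cells of a type and less RNA per cell cannot be told apart.

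PLX4720 moved most of the group upwards by small amounts. Over all 6 lines, 20 of the 32 members that could be tested passed the threshold of an adjusted p under 0.05 (edgeR quasi-likelihood test), 19 of them higher and 1, Angptl4, lower. Of all 16555 genes tested, 27.2% passed in this comparison, 14.5% higher and 12.7% lower. The median log2 change was 0.29 over the members and 0.03 over all genes tested. A positive change was seen in 27 members, and its share over all genes was not counted. Because the members were chosen with earlier results of these data known, these shares and medians describe the group and do not test it. The receptor gene Ppara and the fatty acid translocase Cd36 were too low to test. In the metastasis lines 12 members passed, each of them higher, where 20.4% of all genes passed (12.0% higher, 8.36% lower), and the members' median change was 0.31 against 0.02 over all genes. In the primary lines 6 members passed, each of them higher, where 8.23% of all genes passed (4.46% higher, 3.77% lower), with a median of 0.13 against 0.03. The 3 members that passed in both sites of origin were Ppargc1a, Pdk2 and Pdk4. A further 5 members, Cpt1c, Cpt2, Slc25a20, Acadl and Angptl4, passed over all lines but for neither site in the same fit of 12 libraries. With the metastasis libraries fitted alone, Cpt1c and Angptl4 did pass there (adjusted p = 0.0436 and 0.0209).

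The same direction in every line was seen for 12 of the 32 members, each of them higher, against 12.7% of all genes tested that were higher and 12.8% that were lower in 6 of 6 lines. These were Ppargc1a, Cpt1a, Cpt2, Slc25a20, Acadl, Decr1, Etfa, Etfdh, Ehhadh, Acaa1a, Pdk2 and Pdk4, of which Etfa did not pass the threshold. Ehhadh in M2 had 1 fragment under each treatment, so that its direction there came from library size alone. In M3, Ppargc1a rested on 3 fragments with PLX4720 against 1 with DMSO, and Pdk2 on 10 against 8. Line by line, between 20 members in T3 (62.5%) and 27 in M2 (84.4%) were higher with PLX4720 than with DMSO, where 47.5 to 52.9% of all genes tested were higher in a line. The median change of log2(CPM + 1) was 0.38 in M1, 0.33 in M2, 0.15 in M3, 0.12 in T1, 0.15 in T2 and 0.12 in T3, against 0.00 to 0.03 per line over all genes tested. Leaving out each line in turn kept 8 of the 20 calls whichever line was dropped, namely Pparg, Ppargc1a, Cpt1a, Etfdh, Acaa1a, Pdk2, Pdk4 and Fabp5. For the other 12 the lines whose removal ended the call are named with the gene below.

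**Figure D1:**
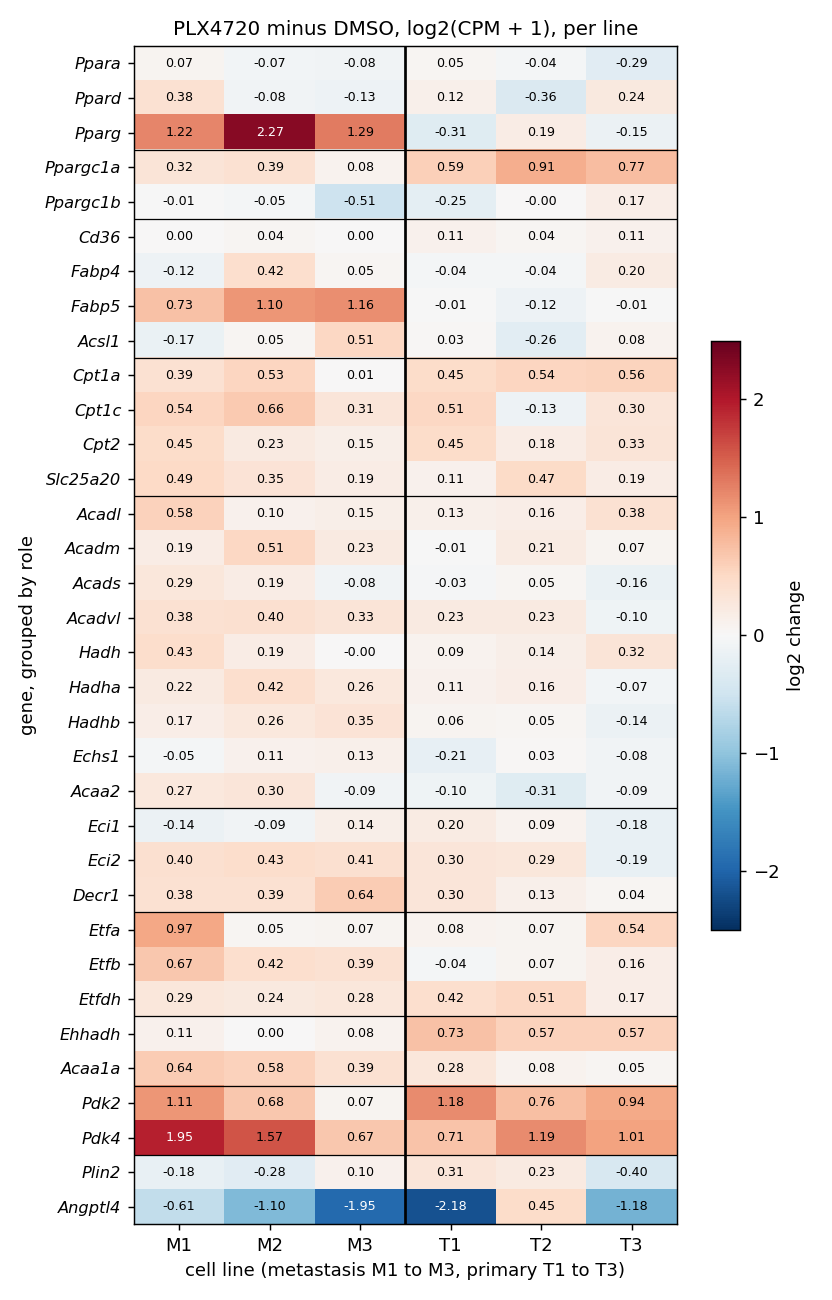
Change of log2(CPM + 1) with PLX4720 against DMSO for each of the 34 genes (rows, grouped by role) in each of the 6 lines (columns, metastasis left and primary right), with red for higher and blue for lower. The rows of Pdk4 and Ppargc1a are red throughout, that of Pparg reads 1.22, 2.27 and 1.29 in M1, M2 and M3 against -0.31, 0.19 and -0.15 in T1, T2 and T3, and that of Angptl4 is blue except in T2.

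The DNA just before the start of 4 members is shown because the results turn on them: Pdk4 as the member with the largest change over all lines, Cpt1a as the entry step of oxidation, Pparg as the receptor that differed between sites, and Acadm as an enzyme of the spiral. Each run has 300 bases, 250 before and 50 after the annotated start, read 5′ to 3′ on the gene's strand from RefSeq annotation on GRCm38.p6. In Pdk4 the capitals mark the transcribed 50 bases. In the other 3 the capitals mark the hexamer AGGTCA, the core to which PPARs and other nuclear receptors bind, or its reverse complement. For Pparg the window was picked among those of the gene that hold this hexamer. The windows lie at chr6:5496229-5496528 on the minus strand for Pdk4, chr19:3323051-3323350 on the plus strand for Cpt1a, chr6:115360894-115361193 on the plus strand for Pparg and chr3:153944594-153944893 on the minus strand for Acadm.
Pdk4: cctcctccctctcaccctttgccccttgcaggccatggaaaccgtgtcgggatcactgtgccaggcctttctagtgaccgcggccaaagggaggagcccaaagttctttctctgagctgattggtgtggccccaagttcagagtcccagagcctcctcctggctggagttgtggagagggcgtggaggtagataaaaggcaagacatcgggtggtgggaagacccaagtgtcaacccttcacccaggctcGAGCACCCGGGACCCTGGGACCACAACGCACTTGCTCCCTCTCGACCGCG
Cpt1a: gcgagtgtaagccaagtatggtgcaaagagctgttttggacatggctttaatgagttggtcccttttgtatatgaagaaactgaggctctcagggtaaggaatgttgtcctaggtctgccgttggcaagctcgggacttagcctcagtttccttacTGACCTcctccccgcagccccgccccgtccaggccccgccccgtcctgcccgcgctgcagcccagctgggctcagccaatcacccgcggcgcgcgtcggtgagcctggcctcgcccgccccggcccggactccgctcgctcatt
Pparg: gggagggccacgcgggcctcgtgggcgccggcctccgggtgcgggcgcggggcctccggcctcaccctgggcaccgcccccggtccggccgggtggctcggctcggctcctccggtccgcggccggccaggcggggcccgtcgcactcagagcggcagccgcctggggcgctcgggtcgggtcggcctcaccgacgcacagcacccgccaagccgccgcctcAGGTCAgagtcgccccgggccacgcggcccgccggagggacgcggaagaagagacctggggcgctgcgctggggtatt
Acadm: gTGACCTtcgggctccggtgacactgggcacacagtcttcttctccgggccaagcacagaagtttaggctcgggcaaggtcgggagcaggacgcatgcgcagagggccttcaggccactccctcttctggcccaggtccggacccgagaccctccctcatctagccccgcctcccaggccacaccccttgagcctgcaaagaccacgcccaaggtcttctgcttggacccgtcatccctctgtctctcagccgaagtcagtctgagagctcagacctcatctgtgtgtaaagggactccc

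Windows of this kind were at hand for 28 of the 34 members, 32 windows in all, and were searched on both strands. The PPAR response element spelled AGGTCANAGGTCA had no match in them and matched 13 of all 32851 mouse windows (0.0396%). The element of the estrogen-related receptors spelled TCAAGGTCA had no match either, against 139 of all windows (0.423%). The hexamer, which both longer motifs contain, stood in 9 windows of 8 members, Acadm, Acadvl, Cd36, Cpt1a, Cpt1c, Echs1, Plin2 and Pparg, and in 16.3% of all windows. Because Cpt1a, Pparg and Acadm are among these 8, the windows shown above do not reflect how often it occurs in the group. These are matches of letters only. A window without one shows only that these letters are not in it.

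Of the receptors, Pparg was the one that changed. In the metastasis lines M1, M2 and M3 it stood at 21, 8.25 and 4.94 CPM with PLX4720, against 8.44, 0.922 and 1.42 CPM with DMSO. In the primary lines T1, T2 and T3 it stood at 101, 56.7 and 72.8 CPM with PLX4720, against 126, 49.6 and 80.7 CPM with DMSO. All 3 metastasis lines were higher with the inhibitor, 1 of the 3 primary lines was, and even the highest metastasis library lay below the lowest primary one. The fitted log2 change was 1.94 ± 0.28 (SE) in metastasis lines (adjusted p = 0.002, 3.83-fold) and -0.09 ± 0.23 in primary lines (adjusted p = 0.84). Over all 6 lines it was 0.92 ± 0.18 (adjusted p = 0.00736). Ppard, the widely expressed receptor, had 11.3, 5.94 and 5.23 CPM in M1, M2 and M3 with PLX4720 against 8.44, 6.34 and 5.84 CPM with DMSO. Its primary values were 4.97, 4.77 and 9.41 CPM in T1, T2 and T3 with PLX4720 against 4.48, 6.42 and 7.81 CPM with DMSO. The groups overlapped, and the change over all lines was 0.03 ± 0.13 (adjusted p = 0.893). Ppara, the main PPAR of hepatocytes, was barely detected, at 0 to 4 fragments per metastasis library and 1 to 7 per primary library with PLX4720, against 1 to 6 and 2 to 14 with DMSO. A count of 3 fragments corresponded to 0.0756 to 0.091 CPM, so differences in Ppara were not detectable at this depth.

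Among the co-activators, Ppargc1a rose and Ppargc1b did not pass. Ppargc1a encodes PGC-1 alpha, which drives mitochondrial oxidation in fasted liver. It had 0.849, 0.97 and 0.0872 CPM in M1, M2 and M3 with PLX4720, against 0.477, 0.506 and 0.029 CPM with DMSO. T1, T2 and T3 had 9.7, 17.5 and 7.38 CPM with PLX4720, against 6.1, 8.87 and 3.91 CPM with DMSO. Each line was higher with the inhibitor, the metastasis lines from a level close to the detection limit. The log2 change was 0.89 ± 0.15 over all lines (adjusted p = 0.00375), 0.92 ± 0.26 for the metastasis lines (adjusted p = 0.0361) and 0.86 ± 0.15 for the primary lines (adjusted p = 0.0167). The calls within a site were lost without any 1 of the 6 lines in metastasis lines (adjusted p = 0.0613 to 0.191) and without any of the 3 primary lines in primary lines (0.0781 to 0.114). Ppargc1b, a relative with an overlapping role, had 0.411, 0.394 and 0.902 CPM in M1, M2 and M3 with PLX4720 against 0.418, 0.446 and 1.71 CPM with DMSO. The primary lines T1, T2 and T3 had 0.235, 0.626 and 0.241 CPM with PLX4720 against 0.474, 0.632 and 0.101 CPM with DMSO. Its groups overlapped, and the change was -0.28 ± 0.28 (adjusted p = 0.5).

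**Figure D2:**
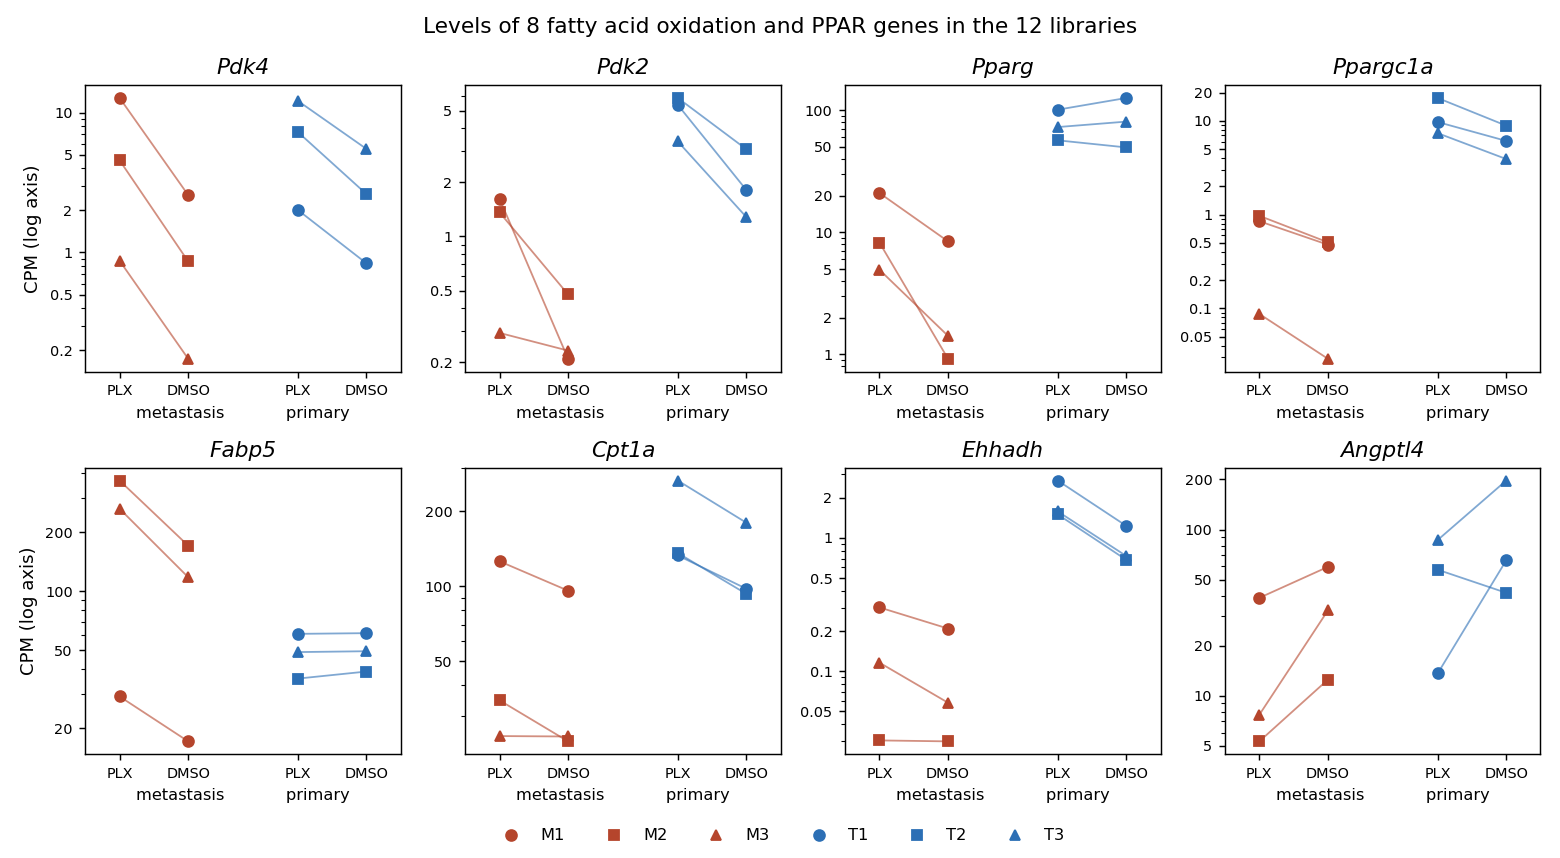
CPM on a log axis for 8 of the genes in all 12 libraries, with PLX4720 left of DMSO for metastasis lines (red) and primary lines (blue) and a line joining both libraries of a cell line. The joining lines slope down to the right for Pdk4, Pdk2 and Ppargc1a in all 6 lines, for Pparg and Fabp5 in the 3 metastasis lines, and up to the right for Angptl4 in 5 of 6 lines.

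Of the members that bring fatty acids to the enzymes, Fabp5 changed, Fabp4 and Acsl1 did not pass, and Cd36 could not be tested. Fabp5 encodes a cytosolic fatty acid binding protein found in many tumours. It had 29, 368 and 264 CPM in M1, M2 and M3 with PLX4720, against 17.1, 171 and 118 CPM with DMSO. Among primary lines, T1, T2 and T3 had 60.6, 35.8 and 48.9 CPM with PLX4720, against 61.1, 38.9 and 49.4 CPM with DMSO. The metastasis lines were each higher with the inhibitor and the primary lines each slightly lower, with M1 far below M2 and M3 under both treatments. The log2 change was 1.02 ± 0.10 in metastasis lines (adjusted p = 0.000238), -0.05 ± 0.10 in primary lines (adjusted p = 0.791) and 0.48 ± 0.07 over all lines (adjusted p = 0.00158). Fragments of Fabp5 and of its close copy Fabp5l2 are divided as the authors' settings assigned them. Fabp4, the adipocyte and macrophage form, passed the filter on low counts through the metastasis lines alone and did not pass the test (0.36 ± 0.42, adjusted p = 0.57). Acsl1, which activates long chains to acyl-CoA, had 10.1 to 54.7 CPM with PLX4720 and 11.5 to 53.7 CPM with DMSO and a change of 0.04 ± 0.10 (adjusted p = 0.798). Cd36, which takes up fatty acids at the cell surface, had at most 1 fragment per metastasis library and 2 to 8 per primary library with PLX4720, against 0 and 0 to 5 fragments with DMSO.

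All 4 genes of the carnitine shuttle rose over all 6 lines, the largest of them 1.43-fold. Cpt1a, the rate-limiting liver form of carnitine palmitoyltransferase at the outer mitochondrial membrane, had 126, 34.8 and 25 CPM in M1, M2 and M3 with PLX4720, against 96, 23.8 and 24.9 CPM with DMSO. Levels in T1, T2 and T3 were 133, 136 and 266 CPM with PLX4720, against 97.7, 93.2 and 180 CPM with DMSO. Each line was higher with the inhibitor, M3 by almost nothing. The log2 change was 0.42 ± 0.07 over all lines (adjusted p = 0.00463, 1.34-fold), 0.52 ± 0.10 in primary lines (adjusted p = 0.0232) and 0.32 ± 0.11 in metastasis lines (adjusted p = 0.0663). The primary call was lost without T1, T2 or T3 (adjusted p = 0.0922 to 0.124), and without M3 the metastasis change was 0.44 and passed (adjusted p = 0.0205).

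Cpt2, which reforms acyl-CoA on the inner membrane, had 28.1, 27 and 22.2 CPM in M1, M2 and M3 with PLX4720, against 20.4, 22.9 and 19.9 CPM with DMSO. For T1, T2 and T3 the values were 34.6, 34.6 and 24.5 CPM with PLX4720, against 25.1, 30.4 and 19.3 CPM with DMSO. Every line was higher with the inhibitor (0.31 ± 0.08, adjusted p = 0.018), and the call was lost without T1 (0.0866). Slc25a20, the carrier that exchanges acylcarnitine for carnitine, had 38.6, 25.5 and 20.7 CPM in M1, M2 and M3 with PLX4720, against 27.2, 19.8 and 18 CPM with DMSO. T1, T2 and T3 had 33.2, 34.3 and 23.6 CPM with PLX4720, against 30.7, 24.4 and 20.6 CPM with DMSO. Again all 6 lines were higher (0.32 ± 0.08, adjusted p = 0.0202), with the call lost without T2 or M2 (0.0523 to 0.0826). Cpt1c is the neuronal relative of Cpt1a and has little of its transferase activity. It had 21.9, 25 and 10.8 CPM in M1, M2 and M3 with PLX4720, against 14.7, 15.5 and 8.54 CPM with DMSO. The primary lines T1, T2 and T3 had 1.25, 0.272 and 2.38 CPM with PLX4720, against 0.585, 0.395 and 1.74 CPM with DMSO. It was higher in 5 of 6 lines, the exception being T2 (0.51 ± 0.16, adjusted p = 0.0436), and the call was lost without T1, T3, M1, M2 or M3 (0.0504 to 0.19).

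Of the 9 enzymes of the mitochondrial spiral, 4 rose over all 6 lines, and the changes of the other 5 ran from -0.01 to 0.20. The acyl-CoA dehydrogenases take the first step, each for its own chain length. Acadvl, for very long chains, had 51.2, 53.2 and 48.9 CPM in M1, M2 and M3 with PLX4720, against 39.2, 40.1 and 38.8 CPM with DMSO. Among primary lines, T1, T2 and T3 had 50.6, 87.6 and 46 CPM with PLX4720, against 42.9, 74.4 and 49.5 CPM with DMSO. The metastasis libraries did not overlap between treatments, whereas T3 was lower with the inhibitor. The change was 0.25 ± 0.07 over all lines (adjusted p = 0.0249), lost without T1, T2 or M2 (0.0696 to 0.112), and 0.38 ± 0.10 in metastasis lines (adjusted p = 0.0244), lost without any line except T3 (0.0505 to 0.125).

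Acadl, for long chains, had 82.1, 63.3 and 47.1 CPM in M1, M2 and M3 with PLX4720, against 54.8, 58.9 and 42.4 CPM with DMSO. Levels in T1, T2 and T3 were 110, 90.9 and 126 CPM with PLX4720, against 100, 81.5 and 96.5 CPM with DMSO. All 6 lines were higher (0.25 ± 0.08, adjusted p = 0.0409), and the call was lost without T1, T2, T3 or M1 (0.0907 to 0.108). Acadm, the medium-chain enzyme whose loss in humans causes fasting hypoglycaemia, had 70.8, 145 and 70.5 CPM in M1, M2 and M3 with PLX4720, against 61.9, 102 and 59.8 CPM with DMSO. For T1, T2 and T3 the values were 58.2, 94.2 and 67.3 CPM with PLX4720, against 58.6, 81.3 and 63.8 CPM with DMSO. It was higher in 5 of 6 lines and level in T1 (0.20 ± 0.06, adjusted p = 0.046). That call was lost without any line except M1 (0.0663 to 0.179), and the metastasis change of 0.31 ± 0.09 (adjusted p = 0.0414) was lost without any line except M1 (0.0751 to 0.28), moving to 0.20 without M2. Acads, the short-chain enzyme, did not pass (0.04 ± 0.07, adjusted p = 0.675).

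Of the later steps, Hadha alone passed. Hadha and Hadhb encode both subunits of the mitochondrial trifunctional protein for long chains and are transcribed away from each other from a shared stretch on mouse chromosome 5, with 85 bases between their outermost annotated exons. The window of Hadhb, chr5:30155003-30155302 on the plus strand of GRCm38.p6, is shown because it holds the starts of both genes, with those 85 bases in capitals.
Hadhb: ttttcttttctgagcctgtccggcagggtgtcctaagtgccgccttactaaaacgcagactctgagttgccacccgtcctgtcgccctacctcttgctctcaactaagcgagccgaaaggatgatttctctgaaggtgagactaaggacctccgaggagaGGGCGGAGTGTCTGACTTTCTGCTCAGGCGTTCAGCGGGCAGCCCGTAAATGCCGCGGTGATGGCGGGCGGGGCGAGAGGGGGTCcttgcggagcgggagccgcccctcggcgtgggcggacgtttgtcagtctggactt
Hadha had 174, 185 and 135 CPM in M1, M2 and M3 with PLX4720, against 150, 138 and 113 CPM with DMSO. T1, T2 and T3 had 113, 175 and 128 CPM with PLX4720, against 105, 157 and 134 CPM with DMSO. It was higher in 5 of 6 lines, with T3 lower (0.18 ± 0.06, adjusted p = 0.0491), and the call was lost without any 1 line (0.0539 to 0.189). Its change in metastasis lines was 0.30 ± 0.08 (adjusted p = 0.036), also lost without any 1 line (0.0554 to 0.224). Its partner Hadhb had 51.7 to 80.4 CPM with PLX4720 and 45.9 to 77.9 CPM with DMSO, with a change of 0.13 ± 0.06 (adjusted p = 0.151). Hadh, the dehydrogenase for shorter chains, changed by 0.20 ± 0.07 (adjusted p = 0.0675), and without M3 it passed at 0.25 (adjusted p = 0.0306). Echs1, the hydratase, and Acaa2, the thiolase, were at -0.01 ± 0.06 and -0.00 ± 0.07 (adjusted p = 0.908 and 0.996).

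Of the auxiliary enzymes that handle unsaturated fatty acids, Eci2 and Decr1 rose and Eci1 did not pass. Decr1, the mitochondrial dienoyl-CoA reductase, had 66, 47.1 and 29.9 CPM in M1, M2 and M3 with PLX4720, against 50.5, 35.6 and 18.8 CPM with DMSO. The primary lines T1, T2 and T3 had 48.8, 45.5 and 38.9 CPM with PLX4720, against 39.4, 41.5 and 37.7 CPM with DMSO. All 6 lines were higher, T3 by the least (0.32 ± 0.07, adjusted p = 0.0109), with the call lost without T1 (0.0657). In metastasis lines the change was 0.48 ± 0.10 (adjusted p = 0.0102), lost without M3 (0.057). Eci2, an enoyl-CoA isomerase of mitochondria and peroxisomes, had 58.6, 75.4 and 48.1 CPM in M1, M2 and M3 with PLX4720, against 44.3, 55.8 and 35.8 CPM with DMSO. Among primary lines, T1, T2 and T3 had 66.8, 51 and 34.4 CPM with PLX4720, against 54.1, 41.6 and 39.3 CPM with DMSO. It was higher in 5 of 6 lines and lower in T3 (0.28 ± 0.08, adjusted p = 0.0288), with the call lost without T1, T2, M2 or M3 (0.0587 to 0.126). Its metastasis change of 0.42 ± 0.11 (adjusted p = 0.0276) was lost without T2, M1, M2 or M3 (0.0548 to 0.13). Eci1, the other isomerase, was at 0.00 ± 0.08 (adjusted p = 0.997).

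The electron transfer flavoprotein carries electrons from the dehydrogenases to the respiratory chain, and 2 of its 3 genes rose. Etfdh, the membrane oxidoreductase that hands the electrons to ubiquinone, had 63.9, 113 and 92.3 CPM in M1, M2 and M3 with PLX4720, against 52, 95 and 76.1 CPM with DMSO. Levels in T1, T2 and T3 were 122, 128 and 72.4 CPM with PLX4720, against 91.1, 89.3 and 64.2 CPM with DMSO. Each line was higher with the inhibitor (0.32 ± 0.06, adjusted p = 0.00636). In primary lines the change was 0.37 ± 0.09 (adjusted p = 0.0373), lost without T1 or T2 (0.201 to 0.244). Etfb, the beta subunit, had 14.7, 15.8 and 14.3 CPM in M1, M2 and M3 with PLX4720, against 8.86, 11.5 and 10.7 CPM with DMSO. For T1, T2 and T3 the values were 19.6, 15.6 and 12.9 CPM with PLX4720, against 20.1, 14.9 and 11.5 CPM with DMSO. The metastasis libraries did not overlap between treatments and the primary ones did. The change was 0.30 ± 0.08 over all lines (adjusted p = 0.0289), lost without any line except M3 (0.0549 to 0.0884), and 0.53 ± 0.12 in metastasis lines (adjusted p = 0.0146), lost without M1 or M2 (0.0539 to 0.0628). Etfa, the alpha subunit, was higher in every line without passing (0.30 ± 0.13, adjusted p = 0.125), with changes of log2(CPM + 1) of 0.97 in M1, 0.54 in T3 and 0.05 to 0.08 in the other lines.

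Both peroxisomal members rose. Acaa1a, the peroxisomal thiolase, had 58.3, 39.7 and 36.3 CPM in M1, M2 and M3 with PLX4720, against 37.2, 26.2 and 27.5 CPM with DMSO. T1, T2 and T3 had 69.1, 58.6 and 50.9 CPM with PLX4720, against 56.8, 55.5 and 49.3 CPM with DMSO. Each line was higher with the inhibitor. The change was 0.34 ± 0.07 over all lines (adjusted p = 0.00662) and 0.55 ± 0.09 in metastasis lines (adjusted p = 0.00433), and neither call depended on any 1 line. Fragments shared with its close paralog Acaa1b are divided as the authors' settings assigned them. Ehhadh, the peroxisomal bifunctional enzyme and a classic PPAR alpha target of liver, passed the filter on low counts through the primary lines alone. It had 2.69, 1.5 and 1.58 CPM in T1, T2 and T3 with PLX4720, against 1.23, 0.684 and 0.731 CPM with DMSO, groups that did not overlap. In M1, M2 and M3 it had 0.301, 0.0303 and 0.116 CPM with PLX4720, against 0.209, 0.0298 and 0.0581 CPM with DMSO, levels at which a few fragments decide the value. The change in primary lines was 1.12 ± 0.21 (adjusted p = 0.0187, 2.18-fold), lost without T1, T2 or T3 (0.0882 to 0.165). Over all lines it was 0.85 ± 0.24 (adjusted p = 0.0316), lost without any 1 line (0.0556 to 0.182).

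Over all 6 lines the largest changes of the group were those of Pdk4 and Pdk2, the pyruvate dehydrogenase kinases among the members. Such kinases phosphorylate and inactivate the pyruvate dehydrogenase complex. Pdk1, of the same family but not a member, was lower and is given with the further lists below. Pdk4, the isoform induced by fasting and by PPARs, had 12.7, 4.55 and 0.872 CPM in M1, M2 and M3 with PLX4720, against 2.57, 0.863 and 0.174 CPM with DMSO. The primary lines T1, T2 and T3 had 2.01, 7.25 and 12.1 CPM with PLX4720, against 0.836, 2.61 and 5.49 CPM with DMSO. Each line was higher with the inhibitor, although the lines differed among themselves by more than the treatment effect and the groups overlapped. The log2 change was 1.81 ± 0.12 over all lines (adjusted p = 7.7e-05, 3.52-fold), 2.34 ± 0.19 for metastasis lines (adjusted p = 0.000115, 5.06-fold) and 1.29 ± 0.16 in primary lines (adjusted p = 0.00526, 2.45-fold). All 3 calls held without any 1 line. Pdk2, the widely expressed isoform, had 1.62, 1.36 and 0.291 CPM in M1, M2 and M3 with PLX4720, against 0.209, 0.476 and 0.232 CPM with DMSO. Among primary lines, T1, T2 and T3 had 5.38, 5.88 and 3.37 CPM with PLX4720, against 1.81, 3.05 and 1.28 CPM with DMSO. Every line was higher, M3 by little, and the primary groups did not overlap. The change was 1.51 ± 0.26 over all lines (adjusted p = 0.00381), 1.73 ± 0.42 for metastasis lines (adjusted p = 0.02) and 1.29 ± 0.30 in primary lines (adjusted p = 0.0344). The metastasis call was lost without M1 or M2 (0.0765 to 0.0993), with a change of 1.12 without M1. It was also lost when the metastasis libraries were fitted alone (0.0626). The primary call was lost without T1, T2 or T3 (0.101 to 0.236).

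Of the 2 lipid storage targets, Angptl4 fell and Plin2 did not pass. Angptl4, a secreted inhibitor of lipoprotein lipase that PPARs and hypoxia induce, had 38.8, 5.31 and 7.68 CPM in M1, M2 and M3 with PLX4720, against 59.6, 12.5 and 32.6 CPM with DMSO. Levels in T1, T2 and T3 were 13.6, 57.3 and 86.4 CPM with PLX4720, against 65.2, 41.6 and 197 CPM with DMSO. It was lower in 5 of 6 lines, the exception being T2, and the groups overlapped widely. It fell by 1.14 ± 0.32 on the log2 scale over all lines (adjusted p = 0.0301), lost without T1, T3, M2 or M3 (0.0701 to 0.0877). In the fit of all 12 libraries the metastasis change was -1.29 ± 0.46 (adjusted p = 0.0809), past the threshold without T1 or T2 (0.0326 and 0.0175). With the metastasis libraries fitted alone it was -1.30 and passed (adjusted p = 0.0209). Plin2, which coats lipid droplets, had 88.1 to 225 CPM with PLX4720 and 107 to 297 CPM with DMSO, with a change of -0.04 ± 0.10 (adjusted p = 0.822).

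**Figure D3:**
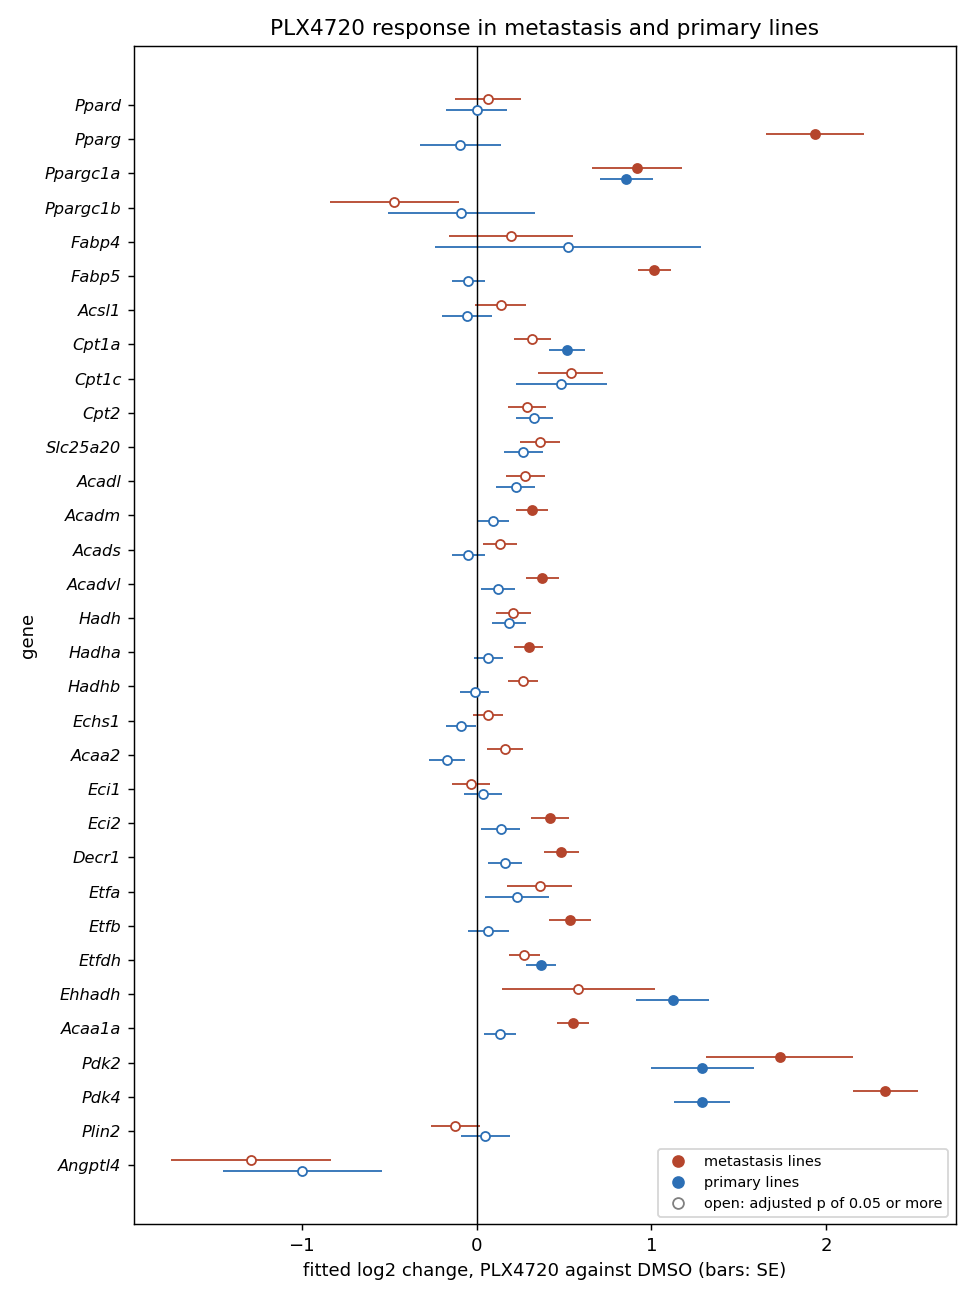
Fitted log2 change with PLX4720 against DMSO for the 32 tested genes in metastasis lines (red) and primary lines (blue), with bars for the SE and filled points for an adjusted p under 0.05. The sites lie apart for Pparg (1.94 and -0.09) and Fabp5 (1.02 and -0.05) and close together for Ppargc1a (0.92 and 0.86) and Cpt2 (0.29 and 0.33).

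Whether the response differed between the sites of origin was tested as an interaction. The difference passed for 2 of the 32 members, Pparg and Fabp5, both more positive in metastasis lines, where 2.94% of all genes passed (1.85% more positive and 1.09% more negative in metastasis lines). For Pparg the metastasis change exceeded the primary one by 2.03 ± 0.37 on the log2 scale (adjusted p = 0.0241), a call lost without T1, T2, T3 or M3 (0.0656 to 0.0878). For Fabp5 the difference was 1.06 ± 0.13 (adjusted p = 0.00774), lost without T2 (0.0547). The next was Pdk4, at 1.05 ± 0.25 (adjusted p = 0.0614). For the remaining members an interaction was not detected, and their estimates ran from -0.54 ± 0.52 for Ehhadh to 0.47 ± 0.17 for Etfb. The 6 called primary changes and 12 called metastasis changes are therefore not shown to differ apart from Pparg and Fabp5. In the 3 metastasis lines the collagen gene Col1a1, a fibroblast marker, moved as well, with 549, 639 and 179 CPM in M1, M2 and M3 with PLX4720 against 63.9, 32.4 and 4.99 CPM with DMSO. Of the 5 fibroblast and stellate markers tested, 3 were called higher with PLX4720 in metastasis lines, where 12.0% of all genes were. In M3 both Pdgfra (45.9 CPM with PLX4720 against 54.4 CPM with DMSO) and Dcn (2.68 against 4.24 CPM) were lower. The part of such markers in the difference between sites was not tested.

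The sites were also compared without inhibitor. Under DMSO 6 of the 31 members tested passed the threshold between metastasis and primary lines, 5 lower and 1 higher in metastasis lines, where 12.1% of all 14992 genes passed (7.49% lower and 4.64% higher). The members' median was -0.48, against 0.00 over all genes tested. Each of the 6 calls was lost without at least 1 line. The 5 members Ppargc1a, Ppargc1b, Ehhadh, Pdk2 and Pdk4 passed the filter on low counts through 1 site alone. Ppargc1a, Ehhadh and Pdk2, which entered through the primary lines, are among the lower calls, a direction that the filter favoured. The count is therefore a description and is no test of the group against all genes. The 6 libraries are the DMSO ones that also serve the treatment comparison, as in the values above.

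Pparg was lower in metastasis lines, at 3.6 ± 4.21 CPM (SD, n = 3) against 85.4 ± 38.2 CPM in primary lines, with no overlap (-4.54 ± 0.97, adjusted p = 0.0288), and the call was lost without any line except M1 (0.0532 to 0.0832). Ppargc1a averaged 0.337 ± 0.267 CPM in metastasis lines and 6.29 ± 2.49 CPM in primary lines, also without overlap. The metastasis lines held little of either transcript. Pdk2 averaged 0.306 ± 0.148 CPM in metastasis lines and 2.05 ± 0.908 CPM in primary lines. Ehhadh averaged 0.0989 ± 0.0963 CPM in metastasis lines, close to the level of 3 fragments, and 0.88 ± 0.3 CPM in primary lines. Ppargc1a, Pdk2 and Ehhadh entered the test through the primary lines alone, where they were high, so their levels are given as a description with no p. In each of these 4 genes the lowest primary library stood above the highest metastasis one, and the share of all genes that do so was not counted. Acadl averaged 52 ± 8.61 CPM in metastasis lines and 92.8 ± 10 CPM in primary lines (-0.82 ± 0.20, adjusted p = 0.0468), lost without any 1 line (0.0792 to 0.134). Cpt1c went the other way, at 12.9 ± 3.8 CPM in metastasis lines and 0.906 ± 0.727 CPM in primary lines (3.84 ± 0.69, adjusted p = 0.0174), lost without T1 or M2 (0.0544 to 0.0605). The sums of the hepatocyte, epithelial and fibroblast markers separated the sites in the same libraries, though not every marker did. Krt8 had 0.298 to 4.76 CPM in metastasis lines and 1930 to 3182 CPM in primary lines under both treatments. Sox9 under DMSO had 28.3, 23.1 and 19.5 CPM in M1, M2 and M3 against 36.7, 9.92 and 23.7 CPM in T1, T2 and T3. The hepatocyte marker Apoa2 was highest in M3, at 0.987 CPM with DMSO. Site and such markers cannot be told apart.

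**Figure D4:**
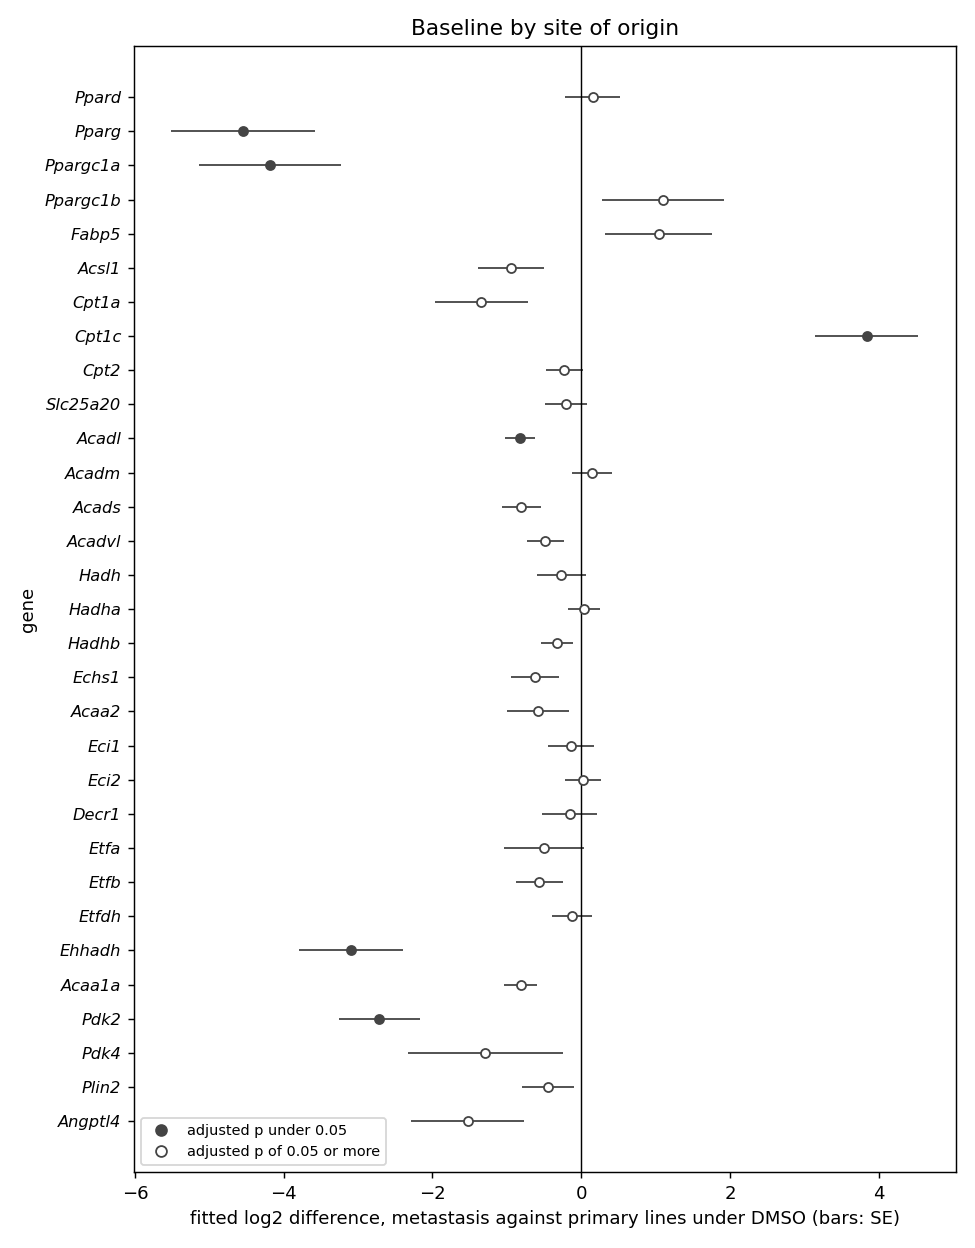
Fitted log2 difference between metastasis and primary lines under DMSO for the 31 tested genes, with bars for the SE and filled points for an adjusted p under 0.05. Most of the oxidation enzymes lie between -1 and 0, Cpt1c stands at 3.84, and Pparg, Ppargc1a, Ehhadh and Pdk2 stand at -4.54, -4.19, -3.09 and -2.72. Ppargc1a, Ehhadh and Pdk2 passed the filter on low counts through primary lines alone, so their filled points are not to be read as a test. For genes near 0 in metastasis lines the fitted value depends on the prior count.

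Levels were also scaled by the length in the authors' tables, which merges the exons of all annotated transcripts of a gene and gave TPM. That length can exceed the length of the transcripts in use, and it was 8730 bases for Hadha and 1091 for Eci1, so genes with long or many isoforms are understated and the order between genes is approximate. On this scale the highest members under DMSO in metastasis lines were Plin2 at 105 ± 25.6 TPM (SD, n = 3), Eci1 at 88.4 ± 18.2 TPM and Acaa2 at 81.2 ± 15.8 TPM, neighbours that do not stand apart beyond their spread. In primary lines they were Plin2 at 154 ± 73.2 TPM, Acaa2 at 128 ± 58.5 TPM and Acadl at 124 ± 14.9 TPM, which overlap as well. Pparg had 3.1 ± 3.64 TPM in metastasis lines and 77.1 ± 33.2 TPM in primary lines, where Cpt1a had 77.8 ± 34.3 TPM. The genes with the largest response over all lines, Pdk4 and Pdk2, were sparse at 0.871 ± 0.897 and 0.245 ± 0.118 TPM in metastasis lines and 2.31 ± 1.9 and 1.72 ± 0.73 TPM in primary lines. Etfb, Etfdh, Cpt2, Decr1 and Hadhb lay between 20.2 and 35.3 TPM in both sites.

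Other genes of the same pathways, 107 distinct ones tested over 8 lists, had 27 higher (25.2%), 9 lower (8.41%) and 71 not past the threshold over all 6 lines, against 14.5% higher and 12.7% lower of all genes tested. Each list below holds 6 to 21 tested genes and its counts are to be read against the same shares. Of 15 further peroxisomal genes 6 were higher, among them Acox3, an acyl-CoA oxidase (0.64 ± 0.11, adjusted p = 0.00384). Of 18 other mitochondrial genes 6 were higher, such as Decr2 (0.60 ± 0.11, adjusted p = 0.00507), whose product sits in peroxisomes, and 1 was lower, Hsd17b10 (-0.33 ± 0.06, adjusted p = 0.00538). Of 18 genes of activation and transport 3 were higher and 2 lower, a share near the 27.2% of all genes that passed. Those with the smallest p included Acsl6 (-1.37 ± 0.17, adjusted p = 0.000995) and the thioesterase Acot2 (0.64 ± 0.12, adjusted p = 0.00693). The fatty acid binding gene Fabp7 had a larger fitted change (2.04 ± 0.44, adjusted p = 0.0123), lost without M3 (0.061), and 0 to 0.291 CPM in metastasis libraries, where its fitted value depends on the prior count. Of 15 genes of lipolysis and droplets 3 were higher and 1 lower, again near that share, with Lipa, the lysosomal acid lipase, at 0.72 ± 0.08 (adjusted p = 0.000468) and the droplet protein Plin4 at 1.38 ± 0.21 (adjusted p = 0.00265). The lower one was Hilpda, an inhibitor of lipolysis (-0.48 ± 0.08, adjusted p = 0.00428). Apart from that of Fabp7, the calls of these named genes did not depend on any 1 line.

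Of 10 other PPAR targets 4 were higher. Vnn1, a pantetheinase of fasted liver, had 0.849, 0.697 and 0.407 CPM in M1, M2 and M3 with PLX4720, against 0.0597, 0.0893 and 0.29 CPM with DMSO. For T1, T2 and T3 the values were 68.4, 149 and 109 CPM with PLX4720, against 20.3, 60.2 and 34.6 CPM with DMSO. All 6 lines were higher (1.84 ± 0.26, adjusted p = 0.00183), and the lowest primary library with PLX4720 stood just above the highest with DMSO. The metastasis lines rested on few fragments, and their call was lost without M1 or M2 (0.0854 to 0.104). It was also lost when the metastasis libraries were fitted alone (0.0691). The primary call was lost without T1 (0.0556). Of 21 partners and linked regulators 4 were higher and 3 lower, not far from the 27.2% of all genes, and the co-activator Ncoa1 was among those higher (0.65 ± 0.12, adjusted p = 0.00631). Of 9 genes of the pyruvate switch and malonyl-CoA control 1 was higher and 2 were lower, Pdk1 and Pdp1. Pdk1, another kinase of the Pdk family, had 67.9, 100 and 174 CPM in M1, M2 and M3 with PLX4720, against 104, 130 and 144 CPM with DMSO. T1, T2 and T3 had 40.6, 92.2 and 44.6 CPM with PLX4720, against 51.1, 153 and 64 CPM with DMSO. Only M3 was higher, and the call was lost without any line except M3 (adjusted p = 0.0606 to 0.116). Pdp1, the phosphatase that reverses the kinases of the Pdk family, fell by 0.46 ± 0.08 (adjusted p = 0.00415), with 44.3, 32.3 and 26.5 CPM in M1, M2 and M3 with PLX4720 against 65.6, 43.5 and 50.8 CPM with DMSO. Its primary values were 41.5, 37 and 28.2 CPM in T1, T2 and T3 with PLX4720 against 48.7, 42.9 and 37 CPM with DMSO, so that every line was lower. Of 6 ketone body genes Bdh2 was the higher one (1.16 ± 0.29, adjusted p = 0.0201), lost without T1 or T2 (0.0547 to 0.0807).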

How the data were processed

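Libraries came from total RNA depleted of ribosomal RNA, with a strand-preserving kit, per the labels' protocols. Per the file headers, the authors deposited raw counts of read pairs per gene, made with featureCounts 1.5.2 over exons of the Ensembl 84 annotation of GRCm38. Their command line shows no strand setting, so a gene and an antisense neighbour cannot be told apart. The aligner was not given in the sources used here. Of the 47729 Ensembl genes in each table, 47224 had a symbol in the reference annotation.

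Counts were tested in R 4.3.3 with edgeR 4.0.16 (filterByExpr, TMM scaling, quasi-likelihood test, Benjamini-Hochberg adjustment over all genes tested, threshold 0.05). PLX4720 was tested over 16555 genes in 1 model of the 12 libraries, blocked by cell line, with separate treatment terms for the sites. Averaging these terms gives the effect over all lines, and their difference is the interaction. The 6 DMSO libraries gave the comparison of sites over 14992 genes. Both fits had 4 residual degrees of freedom and were tested on simulated data. The pairing by cell line comes from the labels. Both libraries of a line deviated together from their group means (r = 0.794 to 0.900), whereas metastasis and primary lines of the same number did not (r = -0.088 to 0.063) and are not paired. Libraries of a group differed by more than counting noise (chi-square per degree of freedom of 127 or more).

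CPM values are counts scaled by TMM library sizes. A change in 1 line is the log2(CPM + 1) with PLX4720 less that with DMSO, and an SE is the size of the fitted change over the root of its F statistic. A floor of 3 fragments covers counting error only. Members and gene lists were chosen with earlier results of these data known. Values in every line are given for the PPAR and co-activator genes, Cpt1a, Pdk4 and each other member past the threshold over all lines, between sites or in the interaction. From each of the 8 further lists up to 4 genes with the smallest p in a comparison were named, and those printed were picked among these with their values known. The alternatives were RLE size factors, DESeq2 1.42.0, no filter on low counts, mitochondrial genes left out, M2 and M3 summed, each line left out, other blocks, each site fitted alone, and a pseudocount of 0.1.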

Additional observations from a re-analysis of the deposited data

Results flagged for a closer look

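In 3 of the 32 members tested for it, 1 line stood apart from the other 5 in its change of log2(CPM + 1) with PLX4720, by a gap relative to the whole range that passed the 95% critical value for 6 values. Chance alone flags about 1 gene in 20. For Cpt1a the line was M3, with a change of 0.01 against 0.39 to 0.56 in the other lines. For Acadvl it was T3, at -0.10 against 0.23 to 0.40, and for Eci2 it was again T3, at -0.19 against 0.29 to 0.43. T3 with PLX4720 is also the library in which mitochondrially encoded genes took 3.67% of fragments. Its part in these values was not tested.

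The PLX4720 response differed between the sites of origin for Pparg, whose change was more positive in metastasis lines by 2.03 on the log2 scale, and for Fabp5, by 1.06, in the test of the interaction.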

How the results depend on the processing

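The counts of members past the threshold were 20 over all lines, 12 in metastasis lines, 6 in primary lines, 2 in the interaction and 6 between sites under DMSO. Under the alternatives run, no result past the threshold changed sign. Without a replicate block for the cell line, 0 members passed the edgeR test in each of the 4 treatment results (at an unadjusted p under 0.05, 2 over all lines, 2 in metastasis lines, 0 in primary lines and 0 in the interaction), because differences between lines then enter the residual spread. Of all genes 0.109%, 0.0906%, 0.00604% and 0% passed there. With the line number as a replicate block, 4 passed between sites under DMSO (7.38% of all genes). With M2 and M3 summed as 1 line, 14 passed over all lines (23.9% of all genes), 7 in metastasis lines (14.8%) and 2 between sites (7.37%). With the libraries of a site fitted alone, 9 passed in metastasis lines (15.1% of all genes) and 6 in primary lines (16.4%). The metastasis calls of Ppargc1a, Acadm, Hadha, Etfb and Pdk2 were lost there (0.0512 to 0.134), and those of Cpt1c and Angptl4 were gained (0.0436 and 0.0209). Leaving out each line in turn gave 9 to 15 over all lines (13 without T3), 5 to 9 in metastasis lines, 1 to 6 in primary lines, 0 to 2 in the interaction (0 without T2, 3 unadjusted) and 0 to 7 between sites (0 without T1 or M2, 8 and 9 unadjusted). The shares of all genes in these fits were 14.1 to 25.3%, 11 to 18.1%, 0.531 to 13.2%, 0.708 to 4.66% and 5.67 to 10.2%. DESeq2 gave 19, 15, 5, 2 and 7, and no filter on low counts 16, 11, 7, 3 and 4, in the order given first, where DESeq2 called 27.2%, 21.2%, 11.4%, 5.56% and 19.8% of all genes and the unfiltered test 14.6%, 11.6%, 6.56%, 3.19% and 6.74%. RLE size factors and leaving out mitochondrial genes gave the main counts. With a pseudocount of 0.1, 30 of the 32 changes per line moved by less than the spread between lines. Depth limits Ppara, Cd36, Fabp4 and, in metastasis lines, Ehhadh, Ppargc1a and Pdk2, which rest on few fragments. With 3 lines per site, whose independence is not known for T3, M2 and M3, most calls of small size depend on 1 or more lines.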
